A study of Mus musculus with 12 samples.

Results

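The classical histone deacetylases Hdac1 to Hdac10 were followed in the hearts of mice with altered Lemd2, a gene of the inner nuclear envelope. The 10 genes were taken by their symbols from a table of read counts that lists 24062 gene symbols, and all 10 passed the filter on low counts in every comparison. RNA from cardiac samples of 12 mice was sequenced, 3 in each of 4 groups, and each sample is called a heart below. Adult WT and KI/KI mice were 2 months old, and the KI/KI mice carried the Lemd2 c.T38>G change on both alleles in every cell. The P1 hearts came from pups at postnatal day 1. Floxed pups carried loxP sites around exon 1 of Lemd2 and no Cre, and served as controls. Pups with the cardiac-specific deletion, named cKO, carried the same sites together with Myh6-Cre, which is driven by a cardiomyocyte promoter, so that other cell types of the heart kept their Lemd2. Founders of both lines had been mated to C57BL/6N mice.

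Histone deacetylases remove acetyl groups from lysines of histones and of other proteins. Class I enzymes (Hdac1, Hdac2, Hdac3 and Hdac8) are mostly nuclear. Hdac1 and Hdac2 are the catalytic subunits of the NuRD, SIN3, CoREST and MiDAC complexes, and Hdac3 is that of the NCoR complexes. Class IIa members (Hdac4, Hdac5, Hdac7 and Hdac9) have little deacetylase activity of their own. They bind MEF2 transcription factors and hold back MEF2 target genes, and in the heart they are known as brakes on hypertrophy. Kinases of the CaMK, protein kinase D and salt-inducible kinase families phosphorylate them, after which 14-3-3 proteins bind them and they leave the nucleus. Class IIb holds Hdac6, a cytoplasmic deacetylase of tubulin, and Hdac10, which deacetylates polyamines.

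Libraries held between 37063669 and 44789753 counted reads. Reads of a single heart on a member ranged from 156 for Hdac8 to 6920 for Hdac2, so that none of the members lay near the floor of 3 counts, which is under 0.081 CPM and covers counting error only. Lemd2 was at 31.9 to 34.7 CPM in WT, 24.8 to 25.6 in KI/KI, 24.4 to 25.3 in floxed and 6.64 to 13.1 in cKO hearts, so that the cKO hearts had the lowest level of the deleted gene. The KI/KI allele is a base change, which counts per gene do not show, so the allele itself was not checked. The lower Lemd2 level in KI/KI hearts, without overlap with WT, has the direction that the study reported by RT-qPCR. It was not called here (adjusted p = 0.181, edgeR). All 8 cardiomyocyte markers were detected in all 4 groups. The replicate labelled P1 cKO 4 had Xist at 617 CPM and almost no Y-linked reads, unlike the other 11 hearts, and Hdac6 and Hdac8 lie on the X chromosome. Summed lung markers were above 20 CPM in 5 hearts spread over the 4 groups (102.1 in WT replicate 3 at most), and 2 of 5 tested lung markers passed the test, both lower in adult WT than in P1 floxed hearts. Erythroid markers summed to 18.0 to 30.5 CPM with Hba-a1 and Hbb-bt at 0 in every library, and 1 was higher and 2 were lower of 3 tested between the ages. Why these globin genes were at 0 was not tested, so the sum is no measure of blood RNA. In heart tissue of mixed cells, fewer cells of a type and less RNA per cell cannot be told apart.

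The promoters of the class IIa members are shown first. Both members called in cKO hearts and the member with the widest change between the ages belong to this class. Each window runs from 250 bases before to 50 bases after a RefSeq transcript start on GRCm38.p6, read 5′ to 3′ on the minus strand. Capitals mark matches, on either strand, to the motifs searched. The GC box was spelled GGGCGG in this search. The CCAAT motif is spelled by its name. The TATA box was searched as TATAAA on both strands. For AP-1 the letters taken were TGANTCA in either direction. The GATA motif was the word AGATAA, and the MEF2 box, the CArG box and the p53 site were taken by name as degenerate patterns. No overlap between different motifs was removed.
Hdac4, chr1:92180292-92180591: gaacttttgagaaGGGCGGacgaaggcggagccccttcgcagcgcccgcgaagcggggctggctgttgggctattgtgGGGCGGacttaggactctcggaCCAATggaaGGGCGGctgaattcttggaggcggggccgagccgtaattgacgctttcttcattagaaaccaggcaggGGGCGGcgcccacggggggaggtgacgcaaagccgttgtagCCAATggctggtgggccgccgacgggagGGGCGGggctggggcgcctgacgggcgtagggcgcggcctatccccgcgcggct
Hdac5, chr11:102230123-102230422: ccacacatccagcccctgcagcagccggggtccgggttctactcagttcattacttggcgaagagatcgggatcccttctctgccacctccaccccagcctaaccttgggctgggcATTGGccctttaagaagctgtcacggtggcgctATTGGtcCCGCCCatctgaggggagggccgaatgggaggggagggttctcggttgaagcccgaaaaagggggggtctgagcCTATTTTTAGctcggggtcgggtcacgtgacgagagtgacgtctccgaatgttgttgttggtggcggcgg
Hdac7, chr15:97831446-97831745: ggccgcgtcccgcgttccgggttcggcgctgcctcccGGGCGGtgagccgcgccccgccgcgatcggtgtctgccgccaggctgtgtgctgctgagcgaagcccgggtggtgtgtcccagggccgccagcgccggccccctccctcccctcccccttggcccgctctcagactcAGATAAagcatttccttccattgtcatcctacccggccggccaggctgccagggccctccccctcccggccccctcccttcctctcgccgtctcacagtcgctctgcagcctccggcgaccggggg
Hdac9, first start, chr12:34917046-34917345: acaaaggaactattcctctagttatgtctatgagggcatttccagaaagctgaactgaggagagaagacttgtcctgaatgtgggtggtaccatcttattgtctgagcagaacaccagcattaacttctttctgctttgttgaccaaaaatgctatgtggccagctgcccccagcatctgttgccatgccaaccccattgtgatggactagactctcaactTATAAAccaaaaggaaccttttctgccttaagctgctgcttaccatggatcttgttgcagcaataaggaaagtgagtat
Hdac9, second start, chr12:34528840-34529139: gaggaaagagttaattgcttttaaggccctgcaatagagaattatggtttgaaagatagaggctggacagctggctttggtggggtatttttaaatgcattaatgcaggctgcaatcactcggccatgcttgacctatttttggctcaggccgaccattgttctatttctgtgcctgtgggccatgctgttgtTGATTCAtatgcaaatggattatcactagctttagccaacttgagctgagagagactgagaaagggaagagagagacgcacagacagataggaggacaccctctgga
The Hdac5 window held a MEF2 box whose first base lies at position -20 from the start, a motif found in 1.9% of the 32851 promoter windows of the RefSeq table. It also held 2 CCAAT motifs, at -134 and -101, and a GC box at -94. In the Hdac4 window 5 GC boxes and 2 CCAAT motifs were found. GC boxes and CCAAT motifs occurred in 35.7% and 37.4% of all windows. Neither Hdac9 window held a GC box. The first had a TATA box at -29, as had 13.6% of all windows somewhere in their length, and the second an AP-1 motif at -57 (7.8% of all windows). The Hdac9 windows had 44.0% and 45.3% GC with 0 and 3 CpG sites, against a median of 52.7% and 7 over all windows, and the Hdac4 window had 68.0% GC with 32 CpG sites. The Hdac7 window printed, 1 of 4 for this gene, had a GC box at -213 and a GATA motif at -76 (11.2% of all windows). CArG boxes (1.6% of all windows) and p53 sites (3 windows in all) were in none of the 11 windows of the 7 members with an entry. A match describes these letters and shows no binding.

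Per kilobase of exon, Hdac3 was the most abundant member in all 4 groups. Levels between genes were compared as CPM per kilobase of merged exons (GENCODE M21), where CPM is the read count scaled to a common library size after TMM normalization over the 12 hearts, and isoforms of a gene were not separated. Hdac3 stood at 33.9 ± 1.00 CPM per kilobase in WT hearts (mean ± SD, n = 3, as for all group values here), 31.8 ± 2.34 in KI/KI, 34.9 ± 0.618 in floxed and 35.2 ± 0.450 in cKO hearts. Its SD was 7.37% of the mean or less in every group. Next came Hdac5 in adult hearts, at 21.2 ± 0.840 in WT and 17.4 ± 1.23 CPM per kilobase in KI/KI, with a range that overlapped that of Hdac2 (19.7 ± 1.10 and 17.3 ± 1.495). At P1 the second place belonged to Hdac2, at 33.4 ± 1.22 in floxed and 31.5 ± 3.17 in cKO hearts, and its range overlapped that of Hdac3. Hdac1 had rank 3 of 10 at P1, at 18.8 ± 2.94 CPM per kilobase in floxed hearts, and rank 5 in adult WT hearts at 8.92 ± 0.916.

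The lower end of the order differed with age as well. Hdac8 was last in adult hearts, at 2.60 ± 0.168 CPM per kilobase in WT and 2.52 ± 0.129 in KI/KI, below every heart's value for each other member. Hdac4 was last at P1, at 1.54 ± 0.0739 in floxed and 1.57 ± 0.0285 in cKO hearts. In adult WT hearts Hdac10, Hdac4 and Hdac9 followed each other at 5.04 ± 0.254, 4.59 ± 0.748 and 4.11 ± 0.905 CPM per kilobase, and each range overlapped the next. In floxed hearts Hdac5 (13.6 ± 2.54), Hdac7 (13.4 ± 1.26) and Hdac6 (11.4 ± 1.06) could not be ordered beyond their spread. In cKO hearts Hdac7 stood at 19.5 ± 0.542 CPM per kilobase, at rank 4 behind Hdac1 (20.2 ± 4.50), and all its hearts were above those of Hdac6 and Hdac5. Hdac9 had rank 7 in floxed and rank 9 in cKO hearts, where its range overlapped that of Hdac8. The merged exons of Hdac9 span 10687 bases against 7940 in its longest transcript, so its level per kilobase depends on the length taken more than that of Hdac1, Hdac3 or Hdac8, which have 1 transcript each in the set used.

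**Figure D1:**
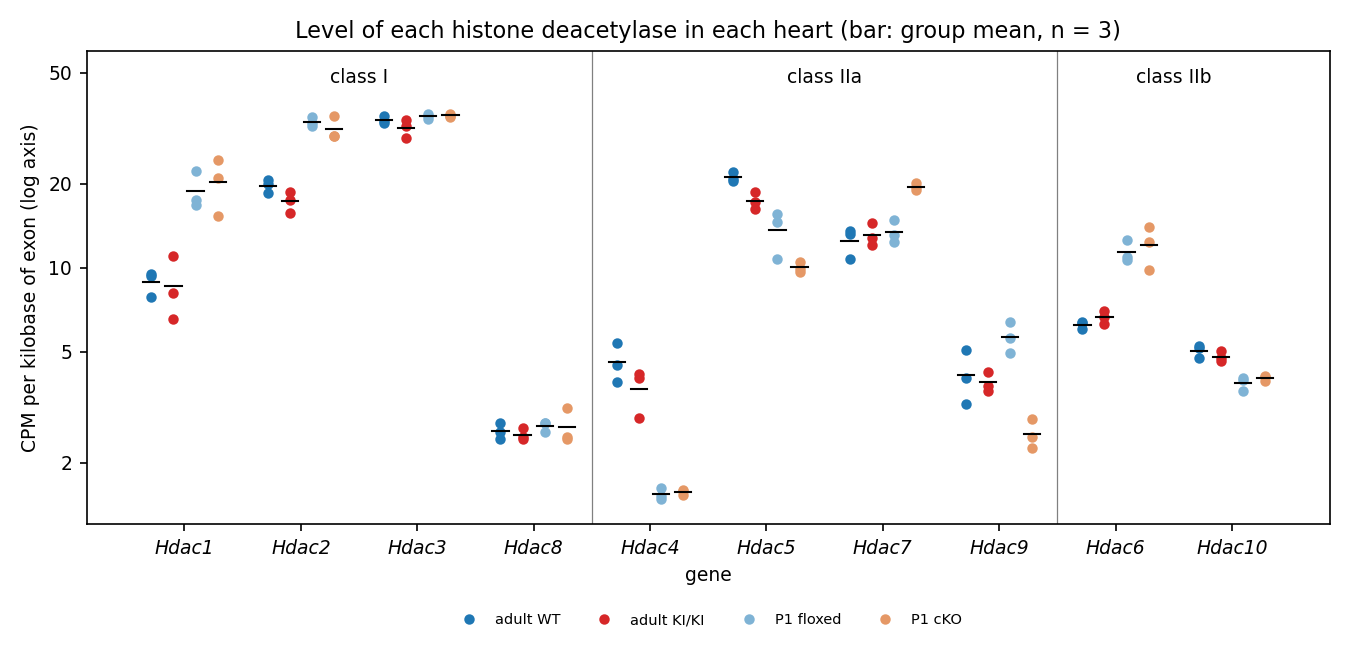
Level of each of the 10 members in each of the 12 hearts, in CPM per kilobase of exon on a log axis, coloured by group with black bars at the group means (n = 3). Hdac3 lies between 29.3 and 35.7 in all 12 hearts, whereas the group means of Hdac1, Hdac4, Hdac5 and Hdac9 each span more than 2-fold.

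Class I genes made up more of the summed level at P1 than in adult hearts. The 4 class I members summed to 65.1 ± 1.70 CPM per kilobase in WT, 60.2 ± 1.56 in KI/KI, 89.8 ± 4.50 in floxed and 89.5 ± 5.89 in cKO hearts. The 6 class II members summed to 53.6 ± 0.505, 49.5 ± 1.14, 49.5 ± 3.12 and 49.7 ± 2.67 in the same order. Class I thus accounted for 54.8% ± 0.450 of the summed level in WT and 54.9% ± 0.427 in KI/KI hearts, and for 64.4% ± 2.49 in floxed and 64.3% ± 0.638 in cKO hearts. In single hearts the share ran from 54.5% to 55.4% in the 6 adult hearts and from 62.5% to 67.2% in the 6 P1 hearts, without overlap. On the log2 scale the class I sum exceeded the class II sum by 0.28 ± 0.026 in WT, 0.28 ± 0.025 in KI/KI, 0.86 ± 0.158 in floxed and 0.85 ± 0.040 in cKO hearts. The P1 floxed replicate 3 had the highest difference, 1.04, with the highest class I sum (95.0) and the lowest class IIa sum (29.7) of its group. Without length scaling class II read counts exceeded those of class I in all 4 groups, with differences of -0.78, -0.77, -0.09 and -0.01, so only the position of the adult groups below the P1 groups was independent of the length used. These balances are a description and were not tested.

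**Figure D2:**
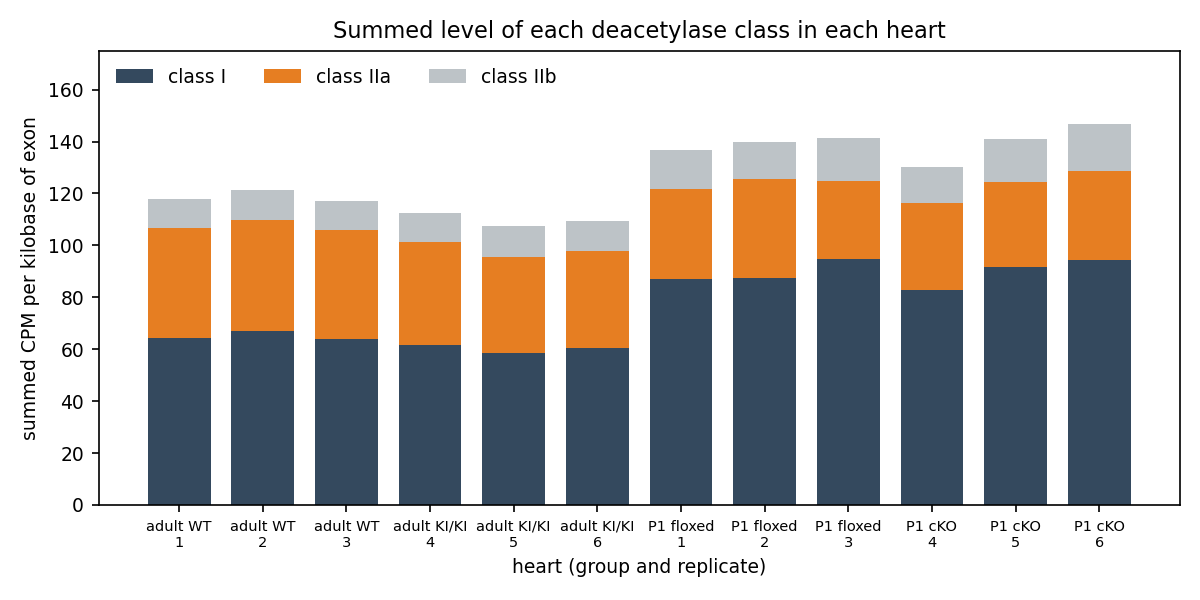
Summed CPM per kilobase of exon of class I, class IIa and class IIb members, stacked for each of the 12 hearts. Class I sums lie between 58.5 and 67.0 in adult hearts and between 82.9 and 95.0 at P1.

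Loss of Lemd2 in cardiomyocytes was accompanied by opposite changes of 2 of the 4 class IIa members, Hdac9 and Hdac7. In cKO hearts Hdac9 fell and Hdac7 rose, and these were the 2 of 10 members called at an adjusted p under 0.05 by edgeR's quasi-likelihood test with Benjamini-Hochberg adjustment over all 15317 genes tested. Of all tested genes 16.9% were called, 9.32% higher and 7.57% lower. The share of members called is near that of all genes, so the count itself says little about the members. The median log2 fold change of the members was 0.02 and that of all genes 0.00. Groups did not overlap for 3 members, namely Hdac9, Hdac7 and Hdac5, where 39.3% of all genes had groups that did not overlap.

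Hdac9 lies on chromosome 12 (34047580 to 34917095, GRCm38, as for the other coordinates). Its level was 59.6, 68.2 and 52.7 CPM in the floxed hearts and 24.1, 26.3 and 30.7 CPM in the cKO hearts. The highest cKO heart was well below the lowest floxed heart. Its mean went from 60.2 ± 7.73 to 27.0 ± 3.35 CPM, a log2 fold change of -1.16 (SE 0.127) or 2.23-fold lower (adjusted p = 0.00606, edgeR). It was the only member past the study's threshold of a 2-fold change, which 4.64% of all genes passed. Over the 6 fits that each omit a heart its log2 fold change ran from -1.26 to -1.07, with an adjusted p under 0.05 in edgeR each time. Hdac9 represses MEF2 and is expressed in muscle. Summed cardiomyocyte markers were at 49337 to 56618 CPM in floxed and 41982 to 45515 in cKO hearts, with 4 of 8 markers lower and 0 higher by the same test. Per 1000 CPM of these markers Hdac9 was at 0.931 to 1.38 CPM in floxed and 0.574 to 0.720 in cKO hearts. The groups remained apart for this sum. The 4 lower markers changed by -0.45 (Ttn), -0.48 (Tnni3), -0.82 (Ryr2) and -1.09 (Pln) on the log2 scale, so the ratio depends on the markers taken. Whether Hdac9 fell more than cardiomyocyte RNA was not tested.

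Hdac7, on chromosome 15 from 97792664 to 97844502, was at 65.2, 73.6 and 61.4 CPM in the floxed hearts and at 99.6, 94.2 and 96.6 CPM in the cKO hearts. All cKO hearts were above all floxed hearts, and the 3 cKO values had the narrower spread. From 66.7 ± 6.24 to 96.8 ± 2.69 CPM, its log2 fold change was 0.54 (SE 0.090, adjusted p = 0.0130, edgeR), a 1.45-fold rise. The adjusted p was 0.0794 without P1 floxed replicate 1 and 0.0531 without P1 cKO replicate 5, and in those fits Hdac9 was the 1 member called. Hdac7 is known for its role in endothelial cells and blood vessel integrity. Summed endothelial markers were at 1203 to 1310 CPM in floxed and 1387 to 1725 in cKO hearts, with 2 of 8 higher and 0 lower. Per 1000 CPM of endothelial markers Hdac7 was at 47.8 to 56.2 CPM in floxed and 56.0 to 71.8 in cKO hearts, where the groups overlapped slightly. Hdac7 shares 29 exon bases with Slc48a1 on the opposite strand, and the strand setting of the counting is not given in the sources used here.

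Hdac5, on chromosome 11 from 102194432 to 102230166, was at 82.2, 87.3 and 60.4 CPM in floxed and at 54.3, 55.7 and 59.1 CPM in cKO hearts. The floxed replicate 3 lay close to the cKO hearts. The log2 fold change of -0.44 (SE 0.141) did not pass (adjusted p = 0.0719, edgeR), although DESeq2 gave 0.0272, a single edgeR fit of all 12 hearts 0.0184 and the fit without P1 floxed replicate 3 gave 0.0167, with a log2 fold change of -0.59. In each of these 3 members were called. Hdac5, like Hdac9, restrains hypertrophic growth through MEF2. Per 1000 CPM of cardiomyocyte markers Hdac5 was at 1.07 to 1.77 CPM in floxed and 1.22 to 1.39 in cKO hearts, and the groups overlapped. For Hdac4 the values were 12.3, 12.03 and 13.2 CPM in floxed and 12.5, 12.9 and 12.8 in cKO hearts (log2 fold change 0.03, SE 0.096, adjusted p = 0.872, edgeR). The class IIa members summed to 34.2 ± 4.30 CPM per kilobase in floxed and 33.6 ± 0.755 in cKO hearts, a difference within the spread between hearts. The ratio of Hdac7 to Hdac9 per kilobase was 2.40 ± 0.0982 in floxed and 7.80 ± 1.06 in cKO hearts. This pair was taken from the calls above, so the ratio restates their changes and is no separate result.

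**Figure D3:**
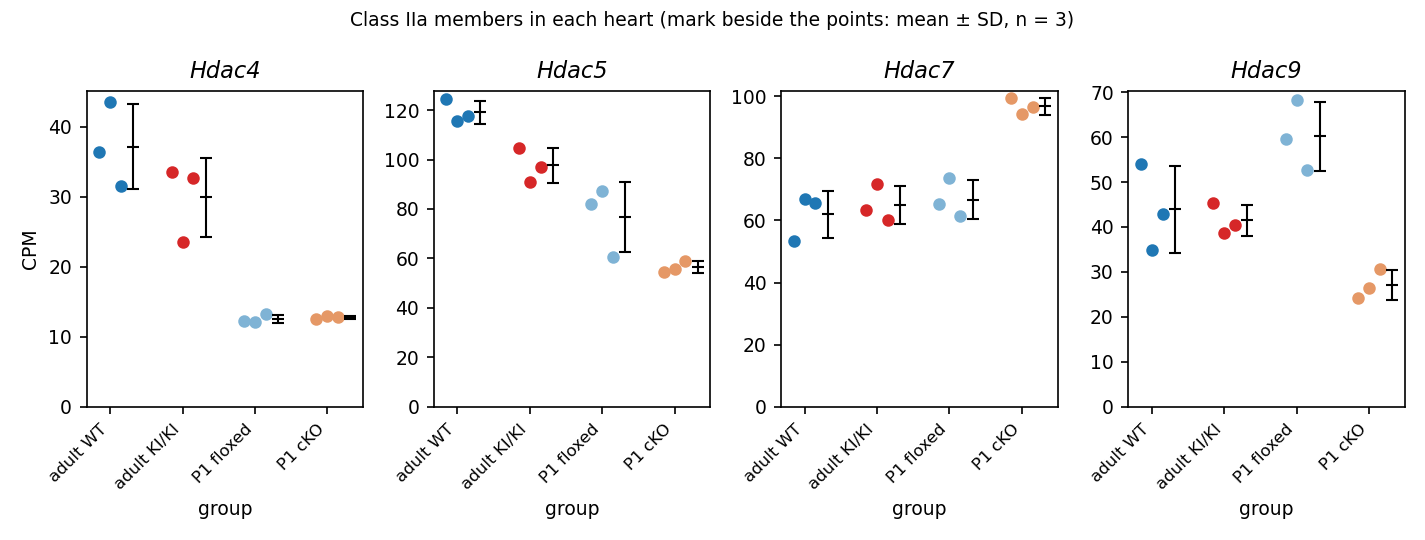
CPM of the 4 class IIa members in each heart, with the mean and SD of each group (n = 3) beside the points. In P1 hearts Hdac7 is higher and Hdac9 lower in cKO than in floxed hearts, and Hdac4 lies below 14 CPM in all 6 P1 hearts and above 23 CPM in all adult hearts.

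None of the 4 class I members passed the test in cKO hearts. Hdac3 was at 69.6 to 72.1 CPM in floxed and 70.7 to 72.5 in cKO hearts, with a log2 fold change of 0.01 (SE 0.064, adjusted p = 0.911, edgeR). Hdac2 was at 136.8 to 146.9 CPM in floxed and at 125.4, 125.4 and 148.6 in cKO hearts (log2 fold change -0.09, SE 0.085). For Hdac1 the cKO hearts spread from 31.4 to 49.5 CPM, around floxed values of 34.3 to 45.2 (log2 fold change 0.10, SE 0.178). Class IIb members did not pass either. Hdac6 had a log2 fold change of 0.07 (SE 0.133) and Hdac10 of 0.05 (SE 0.106). The X-linked Hdac6 and Hdac8 departed in the Xist-positive heart, P1 cKO replicate 4. There Hdac6 was at 40.5 CPM against 51.1 and 58.01 in the other cKO hearts, and Hdac8 was at 6.09 CPM against 4.80 and 4.72. The departure was not limited to X-linked members, since the autosomal Hdac1 was at 31.4 CPM there against 49.5 and 42.75. Without that heart the log2 fold change of Hdac6 was 0.20 and that of Hdac8 was -0.15, neither of which passed the test. A fit with the Y-linked level as a covariate gave 0.21 for Hdac6 (adjusted p = 0.246, edgeR) and -0.17 for Hdac8 (adjusted p = 0.496, edgeR). The Y-linked level mainly sets that heart apart, so this fit is close to leaving the heart out and is no separate check.

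Partners of the class IIa members were looked at next. In cKO hearts all 3 tested MEF2 factors were lower, with a median log2 fold change of -0.46. Mef2a fell from 645.9 ± 17.4 to 424.3 ± 7.61 CPM (log2 fold change -0.61, adjusted p = 0.00634, edgeR), Mef2d from 110.8 ± 3.80 to 80.7 ± 4.70 CPM and Mef2c from 160.0 ± 13.1 to 121.0 ± 6.54 CPM. Of 16 kinases that phosphorylate class IIa members, 2 rose (Camk1 by 0.43 and Camk4 by 0.86 on the log2 scale) and 2 fell (Prkd1 by 0.67 and Camk2a by 1.12). Among the 7 14-3-3 genes 3 rose, namely Ywhaz (0.41), Ywhaq (0.47) and Ywhab (0.26), and 0 fell. Against these, 1 of 12 NuRD subunits (Gatad2a, 0.53), 0 of 14 SIN3 subunits and 0 of 3 tested MiDAC subunits rose or fell, and Rcor3 (-0.34) was among the CoREST subunits that fell. Medians of these class I lists lay between -0.31 for CoREST and 0.06 for NuRD. The difference between the lists was not tested, and 16.9% of all genes were called in this comparison. These counts depended on single hearts. Without floxed replicate 1 or floxed replicate 2, Mef2a was the 1 MEF2 factor called, and 0 kinases, 0 14-3-3 genes, 0 NuRD and 0 CoREST subunits were called. Without cKO replicate 5 the same 4 lists had 0 called genes, and without floxed replicate 3 there was 1 kinase and 1 CoREST subunit. The number of all genes called fell as well, from 2587 to 160 without floxed replicate 1, 668 without floxed replicate 2 and 542 without cKO replicate 5. DESeq2 called 5 CoREST subunits and 1 SIN3 subunit. Among 8 other deacetylases Hdac11, the class IV enzyme, fell from 26.5 ± 3.09 to 12.7 ± 1.15 CPM (log2 fold change -1.07, adjusted p = 0.00634, edgeR), close in size to Hdac9, and the sirtuins Sirt1 to Sirt7 did not pass. Of 10 histone acetyltransferases Kat6b fell by 0.64 on the log2 scale, and 0 were called without floxed replicate 1 or cKO replicate 5.

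Other cell type markers moved with these results. Leukocyte markers rose for 5 of 8 genes and summed to 72.0 to 80.5 CPM in floxed and 114.0 to 162.9 in cKO hearts. Proliferation markers rose for 3 of 8, with sums of 306.6 to 427.2 and 493.5 to 1198 CPM. Fibroblast markers rose for 2 of 8 (5145 to 5959 against 6171 to 7489 CPM), and smooth muscle and pericyte markers rose for 3 and fell for 1 of 8. Their part in the levels of Hdac7, Hdac9 or Hdac5 was not tested beyond the ratios given above.

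In KI/KI hearts none of the 10 members was called by edgeR. Of 14592 genes tested by edgeR, 0.0% were called at an adjusted p under 0.05, and the members had a median log2 fold change of -0.07 against 0.00 for all genes, with 2 of 10 above 0. At an unadjusted p under 0.05 there were 2 members, Hdac5 and Hdac2, where 16.2% of all genes passed. The study itself used DESeq2 and reported up- and downregulated genes in KI/KI hearts. With DESeq2, which here called 529 genes, 1 member was called, so the absence of calls depends on the test. That member was Hdac5, which measured 124.4, 115.4 and 117.5 CPM in the WT hearts against 104.8, 91.0 and 97.0 CPM in the KI/KI hearts. It was the 1 member whose groups did not overlap, where 22.0% of all genes had groups that did not overlap. The log2 fold change of Hdac5 was -0.28 (SE 0.067), with an adjusted p of 0.208 by edgeR against 0.0256 by DESeq2. Its range over the 6 fits that omit a heart was -0.33 to -0.24. Per 1000 CPM of cardiomyocyte markers Hdac5 was at 1.17 to 1.33 CPM in WT and 1.18 to 1.35 in KI/KI hearts, which overlapped.

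The WT hearts held Hdac2 at 87.5, 84.3 and 78.3 CPM and the KI/KI hearts at 79.2, 66.6 and 74.0 CPM, with overlap by a single pair of hearts (log2 fold change -0.18, SE 0.076). Hdac4 had the largest fitted change in size, -0.31 (SE 0.165), with 36.4, 43.6 and 31.5 CPM in WT and 33.6, 23.5 and 32.6 in KI/KI hearts. The low value belonged to KI/KI replicate 5, which also had the highest Hdac1 of the adult hearts (22.5 CPM against 13.4 to 19.4 in the others) and the highest sums of fibroblast (4464 CPM) and proliferation markers (87.1 CPM). Hdac9 spread from 34.8 to 54.0 CPM in WT and from 38.7 to 45.3 in KI/KI hearts, with a log2 fold change of -0.08 (SE 0.156). Hdac7 averaged 62.0 ± 7.55 CPM in the WT hearts and 65.0 ± 6.01 in those of KI/KI mice (log2 fold change 0.08, SE 0.113). For Hdac1, Hdac3, Hdac6, Hdac8 and Hdac10 the log2 fold changes lay between -0.08 and 0.10. No gene of the partner lists passed, since edgeR called none of all genes. Their medians ran from -0.14 for the other deacetylases to 0.08 for MiDAC subunits. Summed leukocyte markers were at 163.6 to 233.7 CPM in WT and 245.8 to 272.0 in KI/KI hearts, and summed cardiomyocyte markers at 88190 to 100410 and 67478 to 88619 CPM, with 0 of 8 called in either list.

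**Figure D4:**
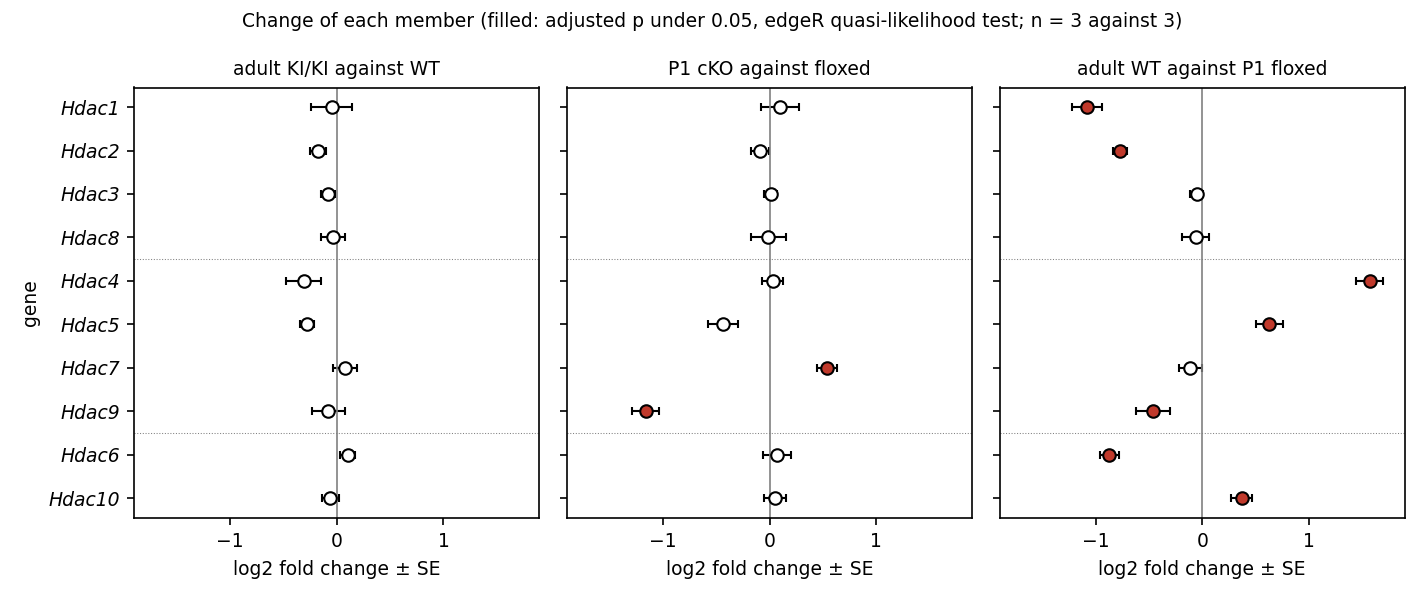
Log2 fold change with its standard error for each member in the 3 comparisons, 3 hearts against 3, with filled points at an adjusted p under 0.05 (edgeR). Filled points number 0 in KI/KI against WT, 2 in cKO against floxed and 7 in adult WT against P1 floxed hearts.

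The effects of both models were compared by an interaction term in a fit of all 12 hearts. Hdac9 was the 1 member of 10 for which the effects differed, where 2.43% of the 15729 tested genes passed. Its log2 fold change was 1.07 higher in KI/KI than in cKO hearts (SE 0.220, adjusted p = 0.0357, edgeR). This call was lost in 8 of the 12 fits that left out a heart (WT 2, WT 3, KI/KI 4, KI/KI 6, floxed 1, floxed 2, cKO 4 and cKO 5), with differences of 0.93 to 1.09 and adjusted p of 0.0559 to 0.104 in edgeR. For Hdac7 the difference was -0.47 (SE 0.145), which edgeR did not call (adjusted p = 0.108) and DESeq2 did (0.0301). For Hdac5, which was lower than its controls in both models, it was 0.16 (SE 0.165, adjusted p = 0.651, edgeR). The models differ in age, allele and affected cells at the same time, and these cannot be told apart.

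More members were called between the ages than between genotypes. Adult WT hearts were compared with P1 floxed hearts, the controls of each model, which differ in age, in mouse line and in any batch that went with age, and these cannot be told apart. The test called 7 of 10 members, 3 higher and 4 lower in the adult hearts, where 65.2% of the 15183 tested genes were called, 31.8% higher and 33.4% lower. With a fold change above 2 there were 2 members, Hdac1 and Hdac4, and 27.2% of all genes. Groups did not overlap for 6 members and for 70.9% of all genes. The shares are close to the background, so the count itself says little about the members. The median log2 fold change was -0.09 for the members and -0.04 for all genes.

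Among class I members, the ubiquitous pair Hdac1 and Hdac2 was lower in adult hearts. Hdac1, on chromosome 4 from 129516104 to 129542713, was at 34.3, 35.5 and 45.2 CPM in floxed and at 16.04, 19.1 and 19.4 CPM in WT hearts. All adult values were well below all P1 values (log2 fold change -1.08, SE 0.137, adjusted p = 0.000223, edgeR). Hdac2, on chromosome 10 from 36974544 to 37001889, was at 140.0, 136.8 and 146.9 CPM in floxed and 87.5, 84.3 and 78.3 in WT hearts, a log2 fold change of -0.77 (SE 0.068, adjusted p = 3.39e-05, edgeR). Hdac3 and Hdac8 were not called. Hdac3 was at 70.9 ± 1.26 CPM at P1 and 68.8 ± 2.04 in adult hearts (log2 fold change -0.05, SE 0.061), and Hdac8 at 5.24 ± 0.239 and 5.03 ± 0.325 (-0.06, SE 0.125).

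Class IIa members went in different directions with age. Hdac4, on chromosome 1 from 91928779 to 92195699, was at 12.3, 12.03 and 13.2 CPM in floxed and at 36.4, 43.6 and 31.5 CPM in WT hearts, 2.96-fold higher in the adult (log2 fold change 1.57, SE 0.125, adjusted p = 1.92e-05, edgeR). The lowest adult heart was above the highest P1 heart by a wide margin. In the full annotation Hdac4 shares 3536 exon bases with Gm26720, a lincRNA on the opposite strand that the table does not list. Reads of the pair cannot be told apart where counting ignores strand. Hdac5 was 1.55-fold higher in the adult, at 119.1 ± 4.72 against 76.6 ± 14.3 CPM (log2 fold change 0.63, SE 0.127, adjusted p = 0.00269, edgeR). Hdac7 had a log2 fold change of -0.11 (SE 0.109, adjusted p = 0.405, edgeR). Hdac9 was lower in the adult, at 43.9 ± 9.67 against 60.2 ± 7.73 CPM (log2 fold change -0.46, SE 0.161, adjusted p = 0.0362, edgeR), but WT replicate 1, at 54.0 CPM, was above floxed replicate 3, at 52.7. Without WT replicate 2, WT replicate 3, floxed replicate 1 or floxed replicate 2 its adjusted p was 0.101 to 0.118 or 0.0789, and Hdac9 was no longer called.

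The class IIb members moved apart. Hdac6, on the X chromosome from 7930120 to 7947889, was at 45.3, 44.2 and 52.3 CPM in floxed and 24.9, 26.4 and 26.2 in WT hearts, a log2 fold change of -0.87 (SE 0.091, adjusted p = 7.5e-05, edgeR). Hdac10, on chromosome 15 from 89123307 to 89128700, was at 10.1, 9.06 and 9.96 CPM in floxed and 13.1, 12.9 and 11.9 in WT hearts (log2 fold change 0.37, SE 0.099, adjusted p = 0.0108, edgeR). The sign of Hdac10 moved with the shift of all genes between scalings. With library totals alone the median of all genes was -0.44, the share of higher genes among those called went from 48.7% to 25.5%, and Hdac10 stood at -0.03, which is 0.41 above that median, as it was under TMM. Under the same scaling Hdac5 was at 0.22 and was not called (adjusted p = 0.194, edgeR), while Hdac3, Hdac7 and Hdac8 were called lower, at -0.45, -0.51 and -0.47, all within 0.07 of that median. Hdac4 (1.16), Hdac1 (-1.48), Hdac2 (-1.17), Hdac6 (-1.27) and Hdac9 (-0.87) kept their direction. In cKO against floxed hearts the same scaling took the share of higher genes among those called from 55.2% to 43.7% and called the same 2 members, and in the interaction it took that share from 52.0% to 82.7%.

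The complexes that hold Hdac1 and Hdac2 were lower in adult hearts in most of their subunits, as were those 2 genes, in a comparison that called 65.2% of all genes. All 10 CoREST subunits were lower, with a median log2 fold change of -0.75, among them Rcor2 (-1.48), Kdm1a, the lysine demethylase (-0.92), and Gse1 (-0.92). Of 12 NuRD subunits 7 were lower and 2 higher (median -0.40), with Chd3 at 158.2 ± 5.99 CPM at P1 and 59.3 ± 6.86 in adult hearts (log2 fold change -1.42, adjusted p = 7.22e-06, edgeR) and Chd4 at 539.1 ± 43.8 and 341.0 ± 13.7 CPM (-0.66). Mta2 and Rbbp4 were each lower by 0.61 on the log2 scale. Of 14 SIN3 subunits 9 were lower and 4 higher (median -0.36), with Sap30 at -1.37 and Ing2 at -0.91, whereas Sap30l (0.80) and Suds3 (0.62) were higher. Of 3 tested MiDAC subunits Trerf1 (-1.61) and Dnttip1 (-0.22) were lower, but Dnttip1 was not called by DESeq2, with RLE factors, without a filter, with a replicate block or in 5 of the 6 fits that omit a heart, where Trerf1 was the 1 subunit called. With library totals alone the higher NuRD subunits Mbd2 and Mbd3, Brms1 of SIN3 and Ncor1 stood below 0 and were not called. Of the subunits of complexes built around Hdac3, Tbl1xr1 (0.48) and Ncor1 (0.27) were higher and Tbl1x (-0.52) was lower.

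Partners of class IIa changed in either direction, in shares near the 65.2% of all genes called, so these counts say little about the lists. Mef2a was lower (-0.51) and Mef2d higher (0.19) in adult hearts, and Mef2c did not pass. Mef2d was no longer called without WT replicate 1, WT replicate 2 or floxed replicate 1 or with the replicate block, which left 1 MEF2 factor, and with library totals alone it was called lower, at -0.21. Of the 16 kinases 5 were higher and 7 lower, with the widest changes in Camk2b, from 7.09 ± 0.226 to 33.0 ± 4.28 CPM (log2 fold change 2.21, adjusted p = 2.57e-06, edgeR), and Camk1g, from 10.7 ± 1.39 to 2.57 ± 0.281 CPM (-2.06), while Mark3 (-0.62) and Prkd3 (-0.61) were lower. The higher kinases Camk2d and Sik3 stood below 0 with library totals alone and were not called. Of 7 14-3-3 genes 1 was higher and 4 were lower, namely Ywhaz (-0.82), Ywhaq (-0.88), Ywhab (-0.47) and Ywhah (-0.48), the first 3 of which were higher in cKO than in floxed hearts. Among the other deacetylases 5 of 8 were higher and 2 lower, with Sirt5 (1.05), Sirt4 (0.62) and Sirt2 (0.60) higher and Sirt6 (-0.94) lower. On the opposing side of acetylation, 1 of 10 acetyltransferases was higher (Kat2b, 0.58) and 5 were lower, among them Hat1 (-0.77), Kat6b (-0.55) and Crebbp (-0.44), and the bromodomain readers Brd2 (-0.27), Brd3 (-0.98) and Brdt (-1.61) were lower.

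**Figure D5:**
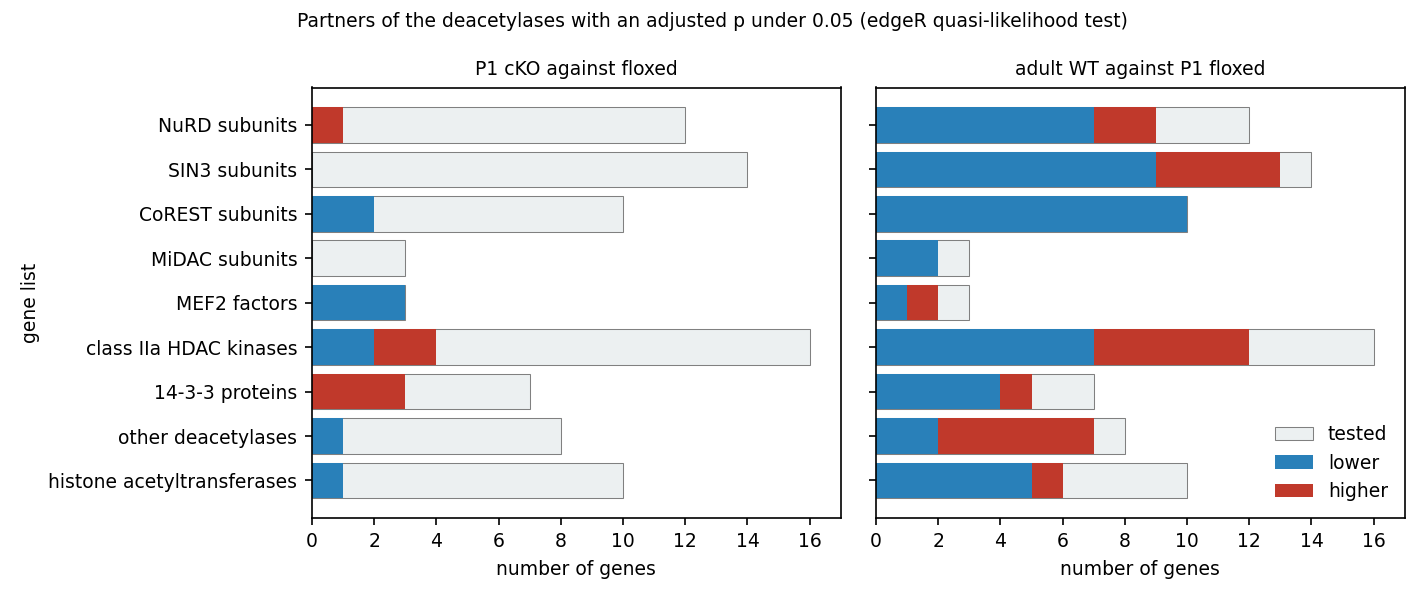
Number of genes of 9 partner lists that were tested, lower or higher at an adjusted p under 0.05 (edgeR), in cKO against floxed and in adult WT against P1 floxed hearts. All 3 tested MEF2 factors are lower in cKO hearts (1 without floxed replicate 1 or 2), and all 10 CoREST subunits are lower in adult hearts.

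Cell type markers also differed between the ages. All 8 proliferation markers were lower in adult hearts, with sums of 306.6 to 427.2 CPM at P1 and 31.3 to 61.8 in WT hearts, all 8 leukocyte markers were higher (72.0 to 80.5 against 163.6 to 233.7 CPM), and 7 of 8 cardiomyocyte markers were higher. Fibroblast markers were higher for 1 and lower for 4 of 8, and endothelial markers were higher for 2 and lower for 2 of 8. Smooth muscle and pericyte markers were higher for 4 and lower for 3 of 8. Of the higher markers, Tnnt2, Kdr and Pdgfrb were not above 0 with library totals alone. Their part in the levels of Hdac1, Hdac2, Hdac4 or Hdac6 was not tested.

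For the member with the smallest p in each comparison, the genes with the most similar pattern over the 12 hearts were looked up among 15729 genes by Pearson's r of log2 CPM, as a description across hearts that fall into 2 ages. Hdac5 in the adult comparison was closest to Rxra (r = 0.979), Cradd (0.978) and P2rx3 (0.973). Hdac9 in the P1 comparison was closest to Nav3 (0.956), Gramd4 (0.931) and Zfp46 (0.930), and Hdac4 in the age comparison to P2ry1 (0.996), Rhobtb1 (0.995) and Prodh (0.994). Since the hearts fall into these ages, each r includes the difference between adult and P1 hearts.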

How the data were processed

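Polyadenylated RNA of 12 flash-frozen cardiac samples, from 3 mice per genotype, was sequenced by the authors with the KAPA mRNA HyperPrep kit and single-end reads. Per the labels and the study's methods, reads were trimmed with Trim Galore, aligned to mm10 with STAR 2.7.2b and counted per gene with HTSeq, and the deposited values are raw counts, without normalization. The strand setting is not given in the sources used here.

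From these counts, log2 fold changes were fitted by edgeR 4.0.16 under R 4.3.3. The 6 hearts of a comparison entered its fit alone, with TMM normalization, filterByExpr and the robust quasi-likelihood test, with Benjamini-Hochberg adjustment over all genes tested; the interaction used all 12 hearts. Calls were made at an adjusted p under 0.05, and also with a fold change above 2. Levels are CPM with TMM factors over 12 hearts, per kilobase of merged exons of the GENCODE M21 basic set where genes are compared. Standard errors came from the fold change and its test statistic.

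The members and all lists of partners (other deacetylases, NuRD, SIN3, CoREST, NCoR, MiDAC, MEF2 factors, class IIa kinases, 14-3-3 proteins, acetyltransferases, bromodomain readers) and cell type markers were written from general knowledge, and were chosen with earlier results of these data known. All 10 members are named in every comparison, with up to 4 genes per list, those with the smallest adjusted p among called genes, the 3 genes most alike to the member with the smallest p, and Lemd2. Adgre1 was matched by its older symbol Emr1, and Epb42 and Ahsp were not matched. Some genes of these lists, and counts that rest on them, are not reported here.

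Alternatives were DESeq2 1.42.0, RLE factors, other filters, non-robust dispersion, limma-voom (limma 3.58.1), 1 fit of all hearts, Y-linked level as a covariate, a replicate block and each heart left out, and, chosen after seeing the data, the legacy quasi-likelihood method and library totals alone. The test was run on simulated counts of 15317 genes, with 100 changed 3-fold and 100 changed 1.5-fold. It recovered 76 and 18 of them in the P1 cKO comparison, beside 17 false calls. The share of false calls is to be read against the genes called, not against all genes. Read in that way, it was above the adjusted p threshold of 0.05 in this simulation. Far fewer genes were changed there than were called in the P1 data, so its recovery does not carry over to them. No pair of replicates held the same library (chi-square per degree of freedom 19.3 or more).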

Additional observations from a re-analysis of the deposited data

Results flagged for a closer look

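Hdac9 drew attention because its change under one Lemd2 allele differed from its change under the other. In KI/KI hearts its log2 fold change against WT was -0.08, and in cKO hearts against floxed it was -1.16, a difference of 1.07 by the interaction term of a fit of all 12 hearts (SE 0.220, adjusted p = 0.0357, edgeR's quasi-likelihood test). The call was lost in 8 of the 12 fits that omit a heart (adjusted p = 0.0559 to 0.104, edgeR) and with a replicate block (1.09, adjusted p = 0.112, edgeR). All 3 cKO hearts were below all 3 floxed hearts, whereas KI/KI and WT hearts overlapped. The models differ in age, allele and the cells affected, which cannot be told apart. With 3 hearts in a group, no group was searched for outlying hearts.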

How the results depend on the processing

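DESeq2 called 1 member in KI/KI hearts (Hdac5), 3 in cKO hearts (with Hdac5) and 2 in the interaction (Hdac9 and Hdac7), and a fit of all hearts called 3 in cKO hearts. A required fold change above 2 left 1 member in cKO and 2 in adult WT against P1 floxed hearts. Leaving out single hearts gave 1 to 3 members in cKO hearts and 0 to 1 in the interaction. The labels do not say whether hearts with the same number belong together. Deviations of WT and floxed hearts with the same number correlated at -0.263, -0.288 and -0.562, and with different numbers at -0.318 to 0.458. Those of KI/KI and cKO hearts correlated at 0.265, 0.215 and 0.077, and with different numbers at -0.355 to 0.204. Deviations from means of 3 hearts depend on each other, so these r cannot decide whether the numbers pair the hearts. With a replicate block 0 members and 0 of all genes were called in the interaction (Hdac9 1.09, adjusted p = 0.112, edgeR), and 6 instead of 7 members between the ages (Hdac9, adjusted p = 0.0556, edgeR). The cause of these shifts was not tested.

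Scaling by library totals alone shifted the median of all genes to 0.08 in KI/KI, -0.07 in cKO, -0.44 between the ages and 0.15 in the interaction, and the members moved with it. Signs turned by this shift for members that were not called: Hdac1 (0.03), Hdac8 (0.04) and Hdac10 (0.01) in KI/KI, Hdac3 (-0.05), Hdac4 (-0.04) and Hdac10 (-0.01) in cKO, and Hdac2 (0.04), Hdac3 (0.04), Hdac8 (0.11) and Hdac10 (0.03) in the interaction, and, among called ones, Hdac10 between the ages (-0.03). RLE factors and DESeq2 turned Hdac6 in the interaction (-0.01). With single hearts left out, signs turned for uncalled members: in KI/KI Hdac1 (-0.28 to 0.11), Hdac7 (-0.03 to 0.13), Hdac8 (-0.08 to 0.01) and Hdac9 (-0.22 to 0.09); in cKO Hdac1 (-0.05 to 0.26), Hdac3 (-0.01 to 0.02), Hdac4 (-0.01 to 0.06), Hdac6 (-0.05 to 0.20), Hdac8 (-0.15 to 0.06) and Hdac10 (-0.00326 to 0.08); between the ages Hdac8 (-0.11 to 0.00284); and in the interaction Hdac6 (-0.12 to 0.13) and Hdac8 (-0.10 to 0.09).

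The class I minus class II difference (log2, in the order WT, KI/KI, floxed, cKO) was 0.61, 0.60, 1.28 and 1.43 with means of log2 levels, -0.78, -0.77, -0.09 and -0.01 without length scaling and 0.62, 0.66, 1.40 and 1.41 against class IIa alone, and 0.22 in both adult groups with the longest transcript as length. The adult groups were below the P1 groups under each of these. A covariate for Y-linked level was fitted in cKO against floxed hearts, where it varies, and called the same 2 members. With 3 hearts a group, 18 of 100 simulated 1.5-fold changes placed among all tested genes were recovered in the P1 comparison. Simulations of the other comparisons recovered 40 of 100 in KI/KI against WT and 37 of 100 between the ages. Far fewer genes were changed in the P1 simulation than the 2587 called in the P1 data. The adjusted p depends on how many genes change, so 18 of 100 does not give the share of real changes recovered.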
